A study of Mus musculus with 9 samples.

Results

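The p53 and Rb pathway genes described here are Trp53, Cdkn1a, Mdm2, Cdkn2a, Cdkn2b, Cdkn2c, Rb1, Ccnd1, Ccnd2 and Cdk6, chosen by name and found as 10 of the 49315 gene IDs counted. RNA was sequenced from 3 co-cultures of SB28 cells, a GFP-expressing mouse glioblastoma line, with primary neonatal astrocytes from C57BL6 mito::mKate2 mice, a strain in which the CAG promoter drives mKate2, a red fluorescent protein, in mitochondria. After 2 days at equal numbers the cells were sorted into 3 groups of 3 libraries each, namely mKate2- SB28 cells, mKate2+ SB28 cells that had taken up astrocyte mitochondria, and the astrocytes themselves. All groups therefore shared the co-culture medium and the other cell type, no further treatment was given, and cells cultured alone were not analysed here. The SB28 groups are 1 cell line, so their replicates are co-cultures and not separate tumors. SB28 was raised from a transposon-induced mouse glioma whose vectors included a short hairpin against p53. Expression of that hairpin was not tested.

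The p53 protein is a transcription factor that responds to DNA damage and to oncogene activity. It induces Cdkn1a, whose product p21 blocks cyclin-dependent kinases, and Mdm2, the ubiquitin ligase that degrades p53 in turn. Cyclin D with Cdk4 or Cdk6 phosphorylates Rb and releases E2F factors, which drive genes of DNA replication, and the Ink4 proteins made by Cdkn2a, Cdkn2b and Cdkn2c inhibit Cdk4 and Cdk6. Cdkn2a also encodes Arf, which holds Mdm2 in check and so joins both pathways, and both are commonly disrupted in glioblastoma.

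Levels are CPM, the count of a gene divided by the total count of its library and scaled to parts per 1000000, and total counts were 24454561 to 35135662 in astrocytes, 27187348 to 35891589 in mKate2- cells and 34175016 to 39287841 in mKate2+ cells. Defining astrocyte markers matched the labels. Slc1a3, a glutamate transporter, was 173, 177 and 236 CPM in the astrocyte libraries and at most 2.38 CPM in any SB28 library, and Apoe was 264, 260.3 and 270.2 CPM against at most 3.22 CPM. Gfap, however, was only 8.83, 3.42 and 19.4 CPM in the astrocytes, and Gjb6 was at 0 in all 9 libraries. Of 14 astrocyte markers, 12 could be tested against mKate2- cells, and 11 were lower in each mKate2- library than in any astrocyte library. The same held for 4982 of all 13356 genes tested. Of the 12, 5 passed the filter of 1 CPM in at least 2 libraries through the astrocytes alone, so that their direction was set by the filter. Gja1, the most abundant of the 14 in SB28 cells and second to Apoe in astrocytes, was no mark of astrocytes here, with 241 to 284 CPM in SB28 libraries and 168 to 216 CPM in astrocytes. In bulk RNA, fewer cells of a type and less RNA per cell cannot be told apart.

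One astrocyte library and one tumor library stood apart. Astrocyte replicate 3 had an astrocyte marker sum of 1899 CPM, against 1172 and 1166 CPM in replicates 1 and 2. The mKate2+ replicate 2 lay at least 45.3 units from every other SB28 library in Euclidean distance on log2(CPM + 1), whereas the nearest neighbours of the other 5 were 18.9 to 22.5 units away. Where either library changed a call or a direction of the 10 genes, the value without it is given.

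To ask how the pathway differs between tumor cells and astrocytes, mKate2- SB28 cells were first set against the astrocytes. In the tumor cells 6 of the 10 genes fell, Trp53, Cdkn1a, Mdm2, Rb1, Ccnd1 and Ccnd2, and 2 rose, Cdkn2a and Cdk6, with adjusted P values below 0.05 and log2 fold changes beyond 1 in either direction. Over all 13356 genes tested, 33.9% passed these thresholds, 11.5% higher and 22.4% lower. The other 2, Cdkn2b and Cdkn2c, were higher by less than the fold threshold. All 10 genes passed the expression filter in both groups, whereas 1682 of the genes tested passed it through the astrocytes alone and made up 1529 of the 2994 called lower. None of the 10 genes overlapped between the groups, a separation that 71.1% of all genes also had, and the 10 log2 fold changes had a median of -1.27 against -0.04 for all genes.

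**Figure D1:**
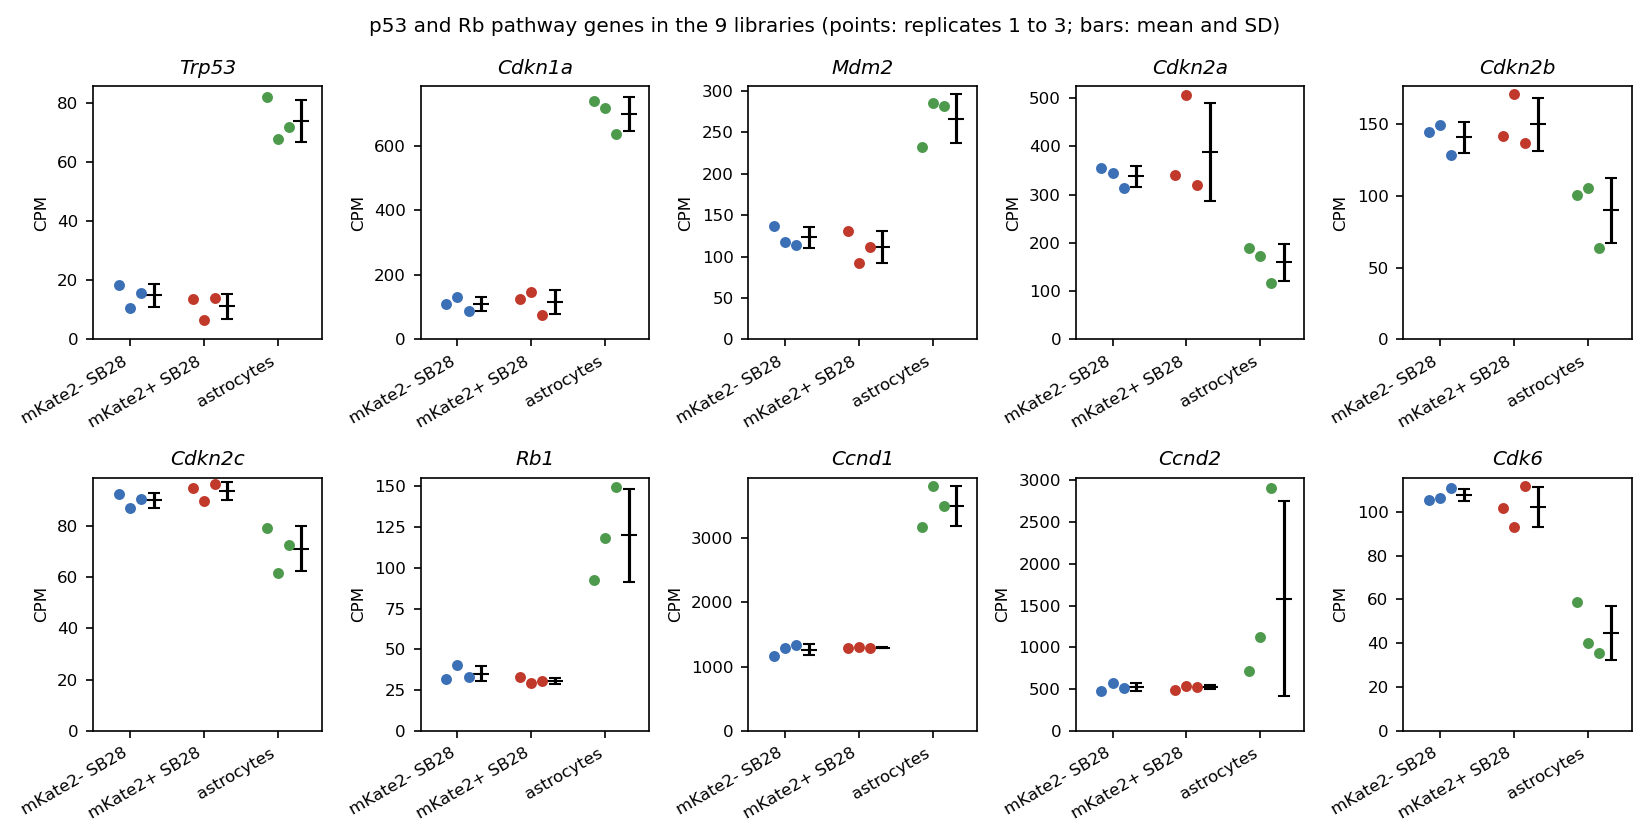
Level in CPM (y axis, linear, from 0) of each of the 10 genes in the 3 libraries of each group (both SB28 groups and astrocytes), with 1 point per library and bars for the mean and SD (n = 3). Both tumor groups lie below the astrocytes for Trp53, Cdkn1a, Mdm2, Rb1, Ccnd1 and Ccnd2 and above them for Cdkn2a, Cdkn2b, Cdkn2c and Cdk6, and the astrocyte spread is widest for Ccnd2, from 712 to 2909.6 CPM.

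Trp53, which encodes p53 (chr11:69580359-69591873, GRCm38, plus strand), was 18.2, 10.6 and 15.8 CPM in mKate2- replicates 1 to 3 and 81.9, 67.9 and 71.9 CPM in the astrocytes. Every tumor library lay far below every astrocyte library. The mean was 14.9 ± 3.92 CPM (SD, n = 3) in the tumor cells and 73.9 ± 7.22 CPM in the astrocytes, 4.95-fold lower by edgeR's quasi-likelihood test (log2 fold change -2.31 ± 0.21, SE, adjusted P = 7.5e-05). Trp53 transcripts were thus low in SB28 but above the expression filter of 1 CPM in each of the 6 SB28 libraries.

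Cdkn1a (chr17:29090976-29100727, plus strand), the p21 gene, had the largest fold change of the 10 in this comparison. It stood at 110.1, 131 and 87.4 CPM in mKate2- cells and at 739, 719 and 638 CPM in astrocytes, with no overlap. The means of 109.5 ± 21.9 and 699 ± 53.3 CPM differed 6.32-fold (log2 fold change -2.66 ± 0.18, adjusted P = 1.9e-05). The p53 protein is known to bind upstream of this gene, and the stretch before its upstream RefSeq start is shown for that reason, with matches to the p53 consensus decamer in capitals. It covers chr17:29090729-29090978 on the plus strand of GRCm38.p6 and reads, 5′ to 3′:
Cdkn1a: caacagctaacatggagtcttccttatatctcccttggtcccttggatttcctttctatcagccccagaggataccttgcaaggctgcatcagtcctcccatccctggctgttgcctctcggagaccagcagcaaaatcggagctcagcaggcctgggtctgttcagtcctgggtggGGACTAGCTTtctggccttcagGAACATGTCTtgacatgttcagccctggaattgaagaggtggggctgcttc

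The decamers begin 73 and 51 bases before the start. Directly after the second come the letters tgacatgttc, which miss the decamer pattern in their first letter alone and so were not marked. Windows from 250 bases before to 50 bases after a RefSeq start were searched on both strands, and 7 of the 10 genes had one. A pair of decamers with a gap of at most 13 bases was found in 24 of 32851 windows, 0.0731% of all, and among the 10 genes only the Cdkn1a window held it. Of the 23 windows of the p53 target genes listed below, 0 held such a pair and 8 (34.8%) held a single decamer. A single decamer was also present in a Trp53 window and an Mdm2 window, as in 8.36% of all windows. A match describes letters and not a bound site.

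Mdm2 (chr10:117688875-117710758, minus strand) followed the same direction with a smaller difference. It was 137, 118 and 115 CPM in mKate2- cells against 232, 285 and 281 CPM in astrocytes. The highest tumor library stayed well below the lowest astrocyte library, and the difference was 2.14-fold (log2 fold change -1.10 ± 0.12, adjusted P = 0.00017).

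The other target genes of p53 mostly lay below the astrocyte level as well. Of 26 targets, written as a list with earlier results of these data known, all 26 could be tested, and 13 fell and 1 rose in mKate2- cells, where 22.4% and 11.5% of all genes did, with a median log2 fold change of -1.03. Perp and Fas, 2 of the 13, passed the filter through the astrocytes alone and so could hardly be called in the other direction, and the median of the other targets was -0.93. Trp53inp1, which promotes p53 activity and autophagy, was 15.6, 17.6 and 14.2 CPM in the tumor cells and 92.2, 152 and 202 CPM in the astrocytes (log2 fold change -3.21 ± 0.27, adjusted P = 4.9e-05). Pidd1, a death domain protein that assembles the PIDDosome, was 8.17, 7.33 and 8.61 CPM against 30.8, 30.5 and 34.0 CPM (log2 fold change -1.97 ± 0.13). Perp, a desmosomal p53 target, was nearly silent in the tumor cells at 0.147, 0.0836 and 0.134 CPM, against 9.94, 14.2 and 17.6 CPM in astrocytes (log2 fold change -6.80 ± 0.36). These 3 genes had the smallest adjusted P values among the targets that fell, although the direction of Perp was set by the filter.

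Tigar, an inhibitor of glycolysis, was the only target that rose, from 10.1, 14.9 and 13.9 CPM in astrocytes to 24.8, 24.5 and 28.6 CPM in mKate2- cells (log2 fold change 1.02 ± 0.17, adjusted P = 0.0011). Its value sat at the fold threshold, and no target was called higher with upper-quartile normalization, at a minimum of 10 counts in every library, with the gene length trend removed, or without astrocyte replicate 1 or mKate2- replicate 3. Among further targets, picked after their values were seen, the proapoptotic genes Bax and Bbc3 fell with log2 fold changes of -1.23 ± 0.21 and -1.95 ± 0.20. Not all proapoptotic targets fell. Apaf1 was 67.9, 69.7 and 66.4 CPM in mKate2- cells and 47.2, 59.9 and 62.2 CPM in astrocytes, higher without being called. Tnfrsf10b was not called either, at -0.32 ± 0.13. Ccng1, a cyclin induced by p53 and the most abundant target of the list, fell with -1.23 ± 0.14, whereas Rrm2b, a ribonucleotide reductase subunit, was higher by 0.85 ± 0.24 without passing the fold threshold. Summed over the 26 genes, targets took 1679, 1725 and 1632 CPM in mKate2- cells and 2947, 3248 and 3431 CPM in astrocytes.

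Of 16 upstream regulators and relatives of p53, 14 were tested, 2 rose and 1 fell, with a median log2 fold change of 0.56, where 11.5% of all genes tested rose and 22.4% fell. The rising genes were Chek1 and Atr, kinases of the replication checkpoint. Chek1 was 35.1, 29.1 and 33.6 CPM in mKate2- cells and 7.4, 9.02 and 8.54 CPM in astrocytes, a 3.96-fold difference (adjusted P = 2.5e-05). Atr rose 2.14-fold, and Rchy1, another ubiquitin ligase that acts on p53, fell 2.33-fold. The number of regulators that rose was 1 without astrocyte replicate 1 and 3 without astrocyte replicate 2 or 3, and 2 fell with no filter.

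The Ink4 genes went the other way from Trp53 and Cdkn1a. Cdkn2a (chr4:89274471-89294653, minus strand) was 356, 345 and 314 CPM in mKate2- cells and 190.0, 173 and 117 CPM in astrocytes. All 3 tumor libraries lay above the highest astrocyte library, and the gene rose 2.13-fold (log2 fold change 1.09 ± 0.19, adjusted P = 0.0017). Without astrocyte replicate 3, its lowest astrocyte library, the log2 fold change was 0.90, under the fold threshold, with an adjusted P of 0.00026. Counts were made per gene and do not separate p16Ink4a from p19Arf.

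Cdkn2b (chr4:89306299-89311039, minus strand), which encodes p15Ink4b, was 144, 149.5 and 129 CPM in mKate2- cells and 101, 105 and 63.6 CPM in astrocytes. It too was higher in each tumor library, though its log2 fold change of 0.66 ± 0.20 (adjusted P = 0.020) stayed under the threshold. Cdkn2c (chr4:109660876-109667189, minus strand), which encodes p18Ink4c, differed least of the 10, at 92.4, 86.7 and 90.5 CPM against 79.0, 61.5 and 72.6 CPM (log2 fold change 0.35 ± 0.12, adjusted P = 0.037).

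Cdkn2a and Cdkn2b are neighbours, and the region is often deleted in glioblastoma together with Mtap, an enzyme of methionine salvage. Mtap was expressed in the tumor cells as well, at 119 ± 13.02 CPM in mKate2- cells against 69.8 ± 7.85 CPM in astrocytes (log2 fold change 0.79 ± 0.13). Within 1 Mb of Cdkn2a 68 genes are annotated, and 10 of them exceeded 1 CPM in at least 2 libraries. Wincr1 and Gm12602, non-coding genes on the Mtap side, rose 3.71-fold and 6.07-fold from low levels of 1.77 ± 0.85 and 0.89 ± 0.34 CPM in astrocytes. Gm12610 was called as well, but at 0.98 ± 0.24 CPM it lay at the filter limit and did not pass the filter in the mKate2+ comparison. Gm12602 and Gm12610 passed the filter through the tumor cells alone, so their direction was set by it. Focad, Klhl9 and Gm26566 were not called, with log2 fold changes of 0.24, -0.25 and 0.03.

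Hacd4, an enzyme of very long chain fatty acid synthesis, was the only one of the 10 called lower, but it passed the filter through the astrocytes alone, which set its direction. It was at 0.73 ± 0.27 CPM in mKate2- cells and 52.1 ± 31.0 CPM in astrocytes (log2 fold change -6.14 ± 0.50). It lies 867 kb from Cdkn2a, farther than any of the genes that rose.

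**Figure D2:**
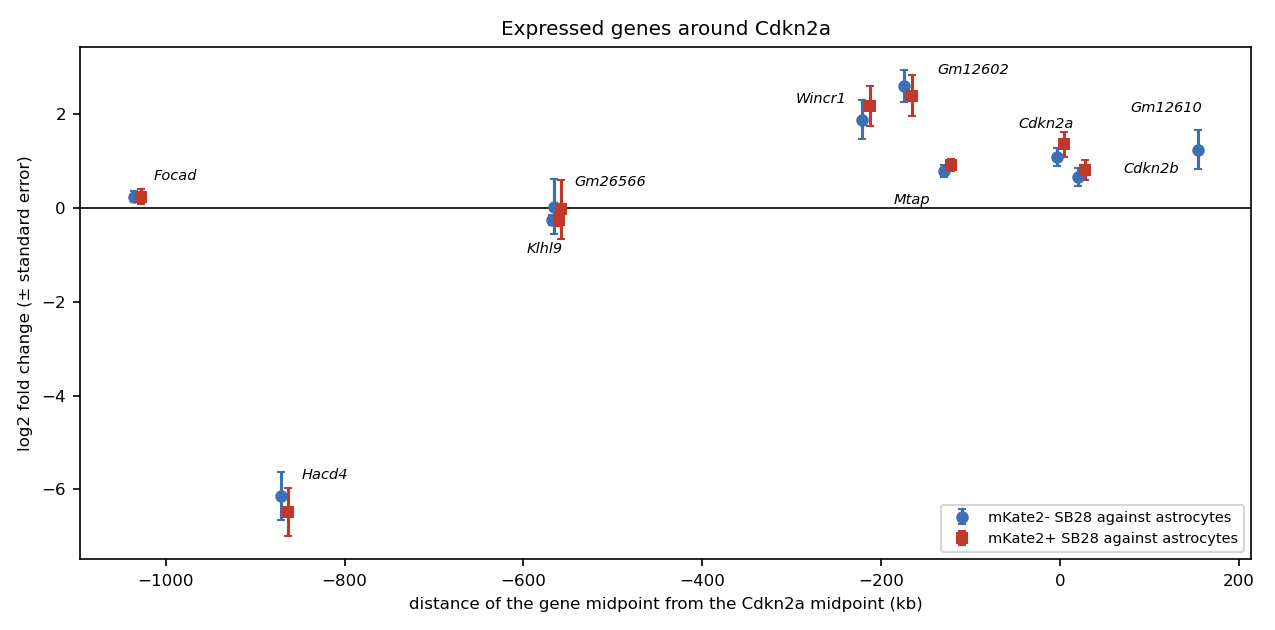
Log2 fold change of SB28 cells over astrocytes with its standard error (y axis) for the 10 expressed genes around Cdkn2a, by distance of their midpoints from that of Cdkn2a in kb (x axis), with circles for mKate2- and squares for mKate2+ cells (n = 3 libraries per group, symbols shifted slightly sideways). Genes from Wincr1 to Gm12610 lie above 0, Focad, Klhl9 and Gm26566 lie near it, and Hacd4 lies at -6.14 and -6.48. Gm12610 has a circle only.

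The stretch before the Arf start of Cdkn2a is shown because E2F factors are known to act on this promoter. It covers chr4:89294620-89294869 on the minus strand of GRCm38.p6, and capitals mark the one match to the E2F letters searched (TTTCCCGC, TTTGGCGC, TTTCGCGC and TTTGCCGC, on both strands), which begins 99 bases before the start:
Cdkn2a: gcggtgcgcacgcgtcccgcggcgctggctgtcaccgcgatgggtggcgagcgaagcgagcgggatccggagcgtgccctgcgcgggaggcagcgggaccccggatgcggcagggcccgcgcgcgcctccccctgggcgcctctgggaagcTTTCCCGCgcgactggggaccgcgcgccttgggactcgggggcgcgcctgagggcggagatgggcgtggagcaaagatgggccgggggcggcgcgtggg

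These letters occurred in 2.26% of all windows, and the window of the p16Ink4a start held none of them.

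Genes whose proteins are known to control the Ink4/Arf locus were examined next. All 13 listed genes were tested, 1 rose and 3 fell, with a median log2 fold change of 0.05, where 11.5% of all genes tested rose and 22.4% fell. Bmi1, a Polycomb subunit that silences the locus, was 168, 172 and 195 CPM in mKate2- cells and 73.2, 105 and 90.2 CPM in astrocytes (log2 fold change 1.01 ± 0.14), a value at the threshold. No gene of the list was called higher under the same 5 settings and omissions at which the Tigar call was lost. The 3 genes called lower, Tbx3, Tbx2 and Cbx7, all passed the expression filter through the astrocytes alone, which set their direction, and their levels are given as a description. Tbx3 and Tbx2, T-box factors, were at 0.11 ± 0.07 and 0.86 ± 0.24 CPM in mKate2- cells and 16.8 ± 2.08 and 17.4 ± 11.1 CPM in astrocytes, and Cbx7, another Polycomb subunit, at 0.61 ± 0.19 and 17.6 ± 3.36 CPM.

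Cdk6 (chr5:3341485-3531008, plus strand), the kinase that the Ink4 proteins inhibit, rose. It was 106, 106 and 111 CPM in mKate2- cells, with little spread, and 58.8, 40.3 and 35.3 CPM in astrocytes. The difference was 2.41-fold (log2 fold change 1.27 ± 0.20, adjusted P = 0.00092).

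Of the D-type cyclins that bind it, Ccnd1 and Ccnd2 were called lower. Ccnd1 (chr7:144929931-144939925, minus strand), which encodes cyclin D1, was 1170.4, 1298 and 1334 CPM in mKate2- cells and 3179, 3809.6 and 3510.0 CPM in astrocytes. It was abundant in both cell types and 2.73-fold lower in the tumor cells (log2 fold change -1.45 ± 0.13, adjusted P = 6.4e-05).

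Ccnd2 (chr6:127125162-127152193, minus strand), which encodes cyclin D2, was 478, 575 and 514 CPM in mKate2- cells, but 712, 1119.8 and 2909.6 CPM in astrocytes. The groups did not overlap, yet the astrocyte mean of 1581 ± 1169 CPM rested largely on replicate 3. The log2 fold change was -1.57 ± 0.45 (adjusted P = 0.017), and without astrocyte replicate 3 it was -0.80 and the call was lost. It was also lost without mKate2- replicate 1 or 3, at log2 fold changes of -1.51 and -1.55 and adjusted P values of 0.064 and 0.059. Replicate 3 is also the astrocyte library with the highest astrocyte marker sum, and the part of that sum in the Ccnd2 result was not tested.

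Rb1 (chr14:73183673-73325822, minus strand), which encodes the Rb protein, was 31.5, 40.3 and 33.3 CPM in mKate2- cells and 92.4, 118 and 149 CPM in astrocytes. It fell 3.38-fold (log2 fold change -1.76 ± 0.18, adjusted P = 0.00013). Rcbtb2 and Lpar6 overlap Rb1 on the opposite strand. Since the strand setting of the counting is not given in the sources used here, reads in the shared stretch may be assigned to either gene. Both of those genes had higher means in mKate2- cells than in astrocytes (106 against 52.2 CPM for Rcbtb2 and 31.7 against 19.8 CPM for Lpar6), the opposite direction to Rb1. LTO1 likewise overlaps Ccnd1 on the opposite strand. Its means were 6.92 CPM in mKate2- cells and 13.9 CPM in astrocytes, the same direction as Ccnd1 at a far lower level.

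**Figure D3:**
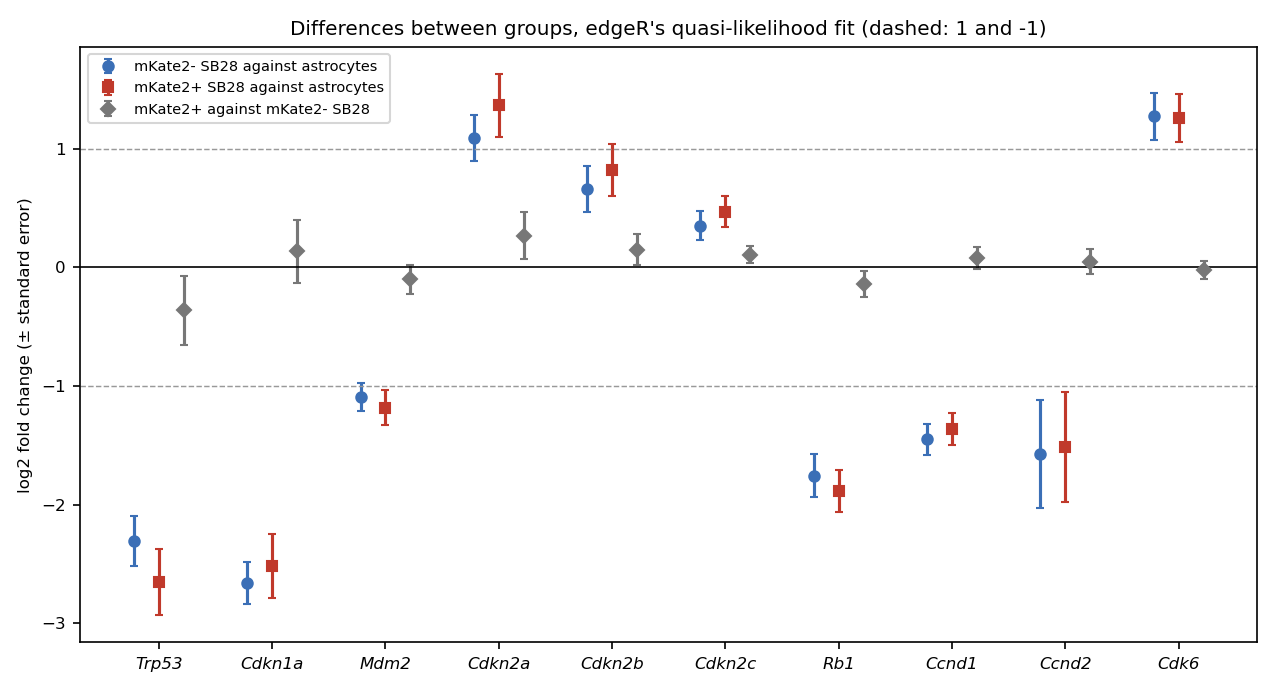
Log2 fold change with its standard error (y axis) of the 10 genes (x axis) in the 3 comparisons, from edgeR's quasi-likelihood fits of 3 against 3 libraries, with dashed lines at 1 and -1. Circles and squares, for mKate2- and mKate2+ SB28 cells against the same astrocytes, range from -2.66 to 1.36, and diamonds, for mKate2+ against mKate2- cells, from -0.36 to 0.27.

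Downstream of Rb the tumor cells had higher levels of the replication genes. Each of 16 E2F target genes rose in mKate2- cells, where 11.5% of all genes did, with log2 fold changes of 1.16 to 2.17 and a median of 1.65. None overlapped between the groups, as held for 71.1% of all genes, and all 16 passed the filter in both. Mcm6, Mcm5 and Mcm2, subunits of the replicative helicase, had the smallest adjusted P values of the list. Mcm6 was 379, 396 and 417 CPM in mKate2- cells and 104, 91.7 and 96.9 CPM in astrocytes, 4.11-fold higher (log2 fold change 2.04 ± 0.11, adjusted P = 8.8e-06). Mcm5 rose 4.50-fold and Mcm2 3.36-fold. The sum over the 16 genes was 2923, 2841 and 3237 CPM in mKate2- cells and 1034, 957 and 1071 CPM in astrocytes.

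The stretch before the Mcm6 start is shown because it held the E2F letters 3 times, with an overlapping pair of matches that begin 110 and 106 bases before the start and another match at 47 bases. It covers chr1:128359706-128359955 on the minus strand of GRCm38.p6, with matches in capitals:
Mcm6: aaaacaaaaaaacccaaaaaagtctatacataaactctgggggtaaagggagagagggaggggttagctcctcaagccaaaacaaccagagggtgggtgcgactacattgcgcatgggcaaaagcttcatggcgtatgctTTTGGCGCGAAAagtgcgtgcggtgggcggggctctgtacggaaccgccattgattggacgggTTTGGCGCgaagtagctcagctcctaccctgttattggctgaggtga

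In all, 8 of the 18 windows of E2F target genes held these letters (44.4%), and 0 of the 23 windows of p53 target genes. The share was 34.8% for the Rb, E2F and DREAM list and 25% for the G1 list. It was 15.4% for the regulators of the Ink4/Arf locus, 10% for the 10 genes, 5% for the p53 regulators and 2.26% over all windows.

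Among the cell cycle genes between cyclin D and E2F the calls were higher ones. Of 9 G1 cyclins, kinases and other kinase inhibitors tested, 4 rose and 0 fell, where 11.5% and 22.4% of all genes did, with a median log2 fold change of 0.80, and without the filter on low counts 1 gene of the list was called lower. Ccne1 and Ccne2, the E-type cyclins, rose 2.66-fold and 3.89-fold, and Ccna2, the S-phase cyclin, rose 3.90-fold from 64.1, 72.1 and 81.9 CPM in astrocytes to 260.0, 279 and 303 CPM in mKate2- cells. Cdk4, Ccnd3 and Cdkn1b, named after their values were seen, were not called. Cdk4, the partner kinase of Cdk6, was higher by 0.62 ± 0.17, and Ccnd3, the third D-type cyclin, and Cdkn1b, which encodes p27, differed by -0.19 ± 0.14 and -0.03 ± 0.15.

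In the Rb family, the E2F factors and the DREAM complex, which represses cell cycle genes in quiescent cells, 19 genes were tested, 6 rose and 0 fell, where 11.5% and 22.4% of all genes did, with a median log2 fold change of 0.48. E2f2 rose from 4.54, 5.90 and 5.44 CPM in astrocytes to 26.7, 22.7 and 24.6 CPM in mKate2- cells (log2 fold change 2.23 ± 0.16). Mybl2, which turns the complex into an activator of mitotic genes, and E2f8, an atypical E2F, rose 4.04-fold and 3.84-fold. The Rb relatives Rbl1 and Rbl2, named after their values were seen, stayed under the fold threshold at 0.99 ± 0.21 and -0.61 ± 0.15.

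**Figure D4:**
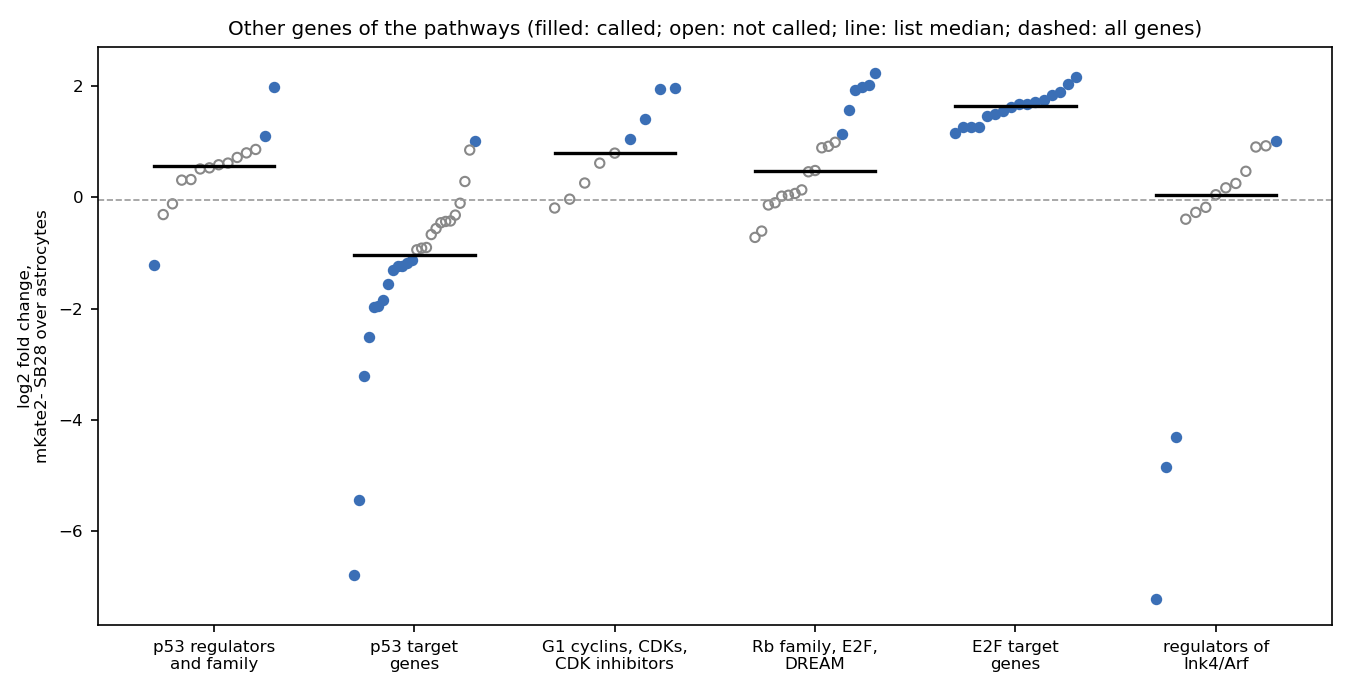
Log2 fold change of mKate2- SB28 cells over astrocytes (y axis) for each tested gene of 6 lists (x axis, genes sorted within a list), with filled points for called genes, a solid line at each list's median and a dashed line at the median of all 13356 genes (-0.04). All 16 E2F target genes are filled and above 1, and 13 of 26 p53 target genes are filled and below -1.

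The mKate2+ SB28 cells were then set against the same 3 astrocyte libraries, so the comparison is not independent of the one above. Again 2 of the 10 genes rose and 6 fell, where 35.0% of 13342 genes passed the thresholds, 12.2% higher and 22.8% lower. None of the 10 overlapped between the groups, as held for 67.1% of all genes. Trp53 was 13.5, 6.39 and 13.9 CPM in the mKate2+ libraries and Cdkn1a 124, 147 and 74.2 CPM. Both were far below the astrocytes, by 6.29-fold and 5.73-fold (log2 fold changes -2.65 ± 0.28 and -2.52 ± 0.27, adjusted P = 0.00019 and 0.00020). Mdm2 was 131, 91.8 and 111 CPM (log2 fold change -1.18 ± 0.15), and Rb1 32.8, 29.1 and 30.3 CPM (-1.89 ± 0.18).

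Cdkn2a was 341, 506 and 320.0 CPM in mKate2+ cells, with replicate 2 well above the others, and rose 2.58-fold over the astrocytes (log2 fold change 1.36 ± 0.26, adjusted P = 0.0032). Without that replicate the log2 fold change was 1.09 and the gene was still called. The log2 fold changes of Cdkn2b and Cdkn2c, 0.82 ± 0.22 and 0.47 ± 0.13, remained under the threshold. Cdk6 was 102, 93.1 and 112 CPM and rose 2.39-fold. Ccnd1 was 1285, 1299 and 1294 CPM, nearly the same in every mKate2+ library over total counts, and fell 2.57-fold. The TMM factors of these libraries were 0.998, 0.921 and 0.988, so replicate 2 was higher than the others over effective library sizes.

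Ccnd2 was 493, 542 and 527 CPM in mKate2+ cells (log2 fold change -1.52 ± 0.46, adjusted P = 0.023). The call was lost without astrocyte replicate 3, at a log2 fold change of -0.76, and without any one of the mKate2+ libraries, at log2 fold changes of -1.57 to -1.46 and adjusted P values of 0.058 to 0.068. By list, where 12.2% of all genes tested rose and 22.8% fell, all 16 E2F target genes rose, and of the 26 p53 target genes 12 fell and 1 rose. The G1 list gave 4 higher and 0 lower, the Rb, E2F and DREAM list 6 and 0, the p53 regulators 1 and 1, and the regulators of the Ink4/Arf locus 0 and 3. The p53 regulators called higher were 2 without astrocyte replicate 2 or 3, without mKate2+ replicate 2 or with no filter, and 3 with the gene length trend removed, and those called lower were 3 with no filter, where 1 gene of the G1 list was also called lower. Without mKate2+ replicate 2, 1 regulator of the Ink4/Arf locus and 9 genes of the Rb, E2F and DREAM list were called higher. The 3 regulators of the locus and 2 of the 12 p53 targets called lower again passed the filter through the astrocytes alone.

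The comparison of mKate2+ with mKate2- SB28 cells addressed whether cells that had acquired astrocyte mitochondria differed from those that had not. The study's cutoffs for genes higher in mKate2+ cells were used here in both directions, 1.5-fold in size and 0.05 for P without adjustment, with its count of 50 taken as a mean of normalized counts. By these, 0 of the 10 genes were called, where 0.363% of the 11854 genes tested were (0.194% higher and 0.169% lower), and 0 of the 92 other tested genes of the 6 lists were. At an adjusted P value below 0.05 0 genes of the whole table passed edgeR's quasi-likelihood test and 0 passed in DESeq2, while 241 genes, 2.03%, had an unadjusted P value below 0.05 in edgeR. All 10 genes overlapped between the 2 groups, as did most genes, since 8.83% of the genes tested were separated.

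The log2 fold changes of the 10 genes ran from -0.36 for Trp53 to 0.27 for Cdkn2a, with adjusted P values of 0.92 or more. The Trp53 value was -0.11 without mKate2+ replicate 2 and -0.56 without mKate2- replicate 2. The intervals show what these libraries could resolve. For Cdk6 the 95% interval of the log2 fold change was -0.20 to 0.15, for Ccnd1 -0.13 to 0.30, for Cdkn2c -0.06 to 0.27 and for Ccnd2 -0.20 to 0.30, so that a log2 difference of 1 in either direction lay outside each of them. The interval for Trp53 was the widest, -1.04 to 0.31, and that for Cdkn1a ran from -0.48 to 0.75.

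The Trp53 interval reached past -1, and those of Cdkn2a, from -0.19 to 0.73, Cdkn2b, from -0.16 to 0.45, Mdm2, from -0.38 to 0.18, and Rb1, from -0.40 to 0.12, did not. The intervals of Trp53, Cdkn1a and Cdkn2a held differences beyond the 1.5-fold cutoff of this comparison, and those of the other genes did not. The mKate2+ replicate 2 had the highest Cdkn1a, Cdkn2a and Cdkn2b values and the lowest Trp53, Mdm2, Rb1 and Cdk6 values of the 6 SB28 libraries. Without it the log2 fold changes of Cdkn1a, Cdkn2a and Cdkn2b turned to -0.14, -0.03 and -0.01, so the direction of these 3 genes within SB28 rested on that library, and the sign of Cdkn1a also turned, to -0.01, without mKate2- replicate 3. Levels in mKate2+ replicate 2 also went with gene length. Against the mean of the 6 libraries, its log2(CPM + 1) changed by -0.15 per doubling of exonic length, whereas the slopes of the other 5 were 0.0073 to 0.050. With the length trend removed from all libraries the log2 fold changes of Cdkn1a, Cdkn2a and Cdkn2b, genes of 3553, 1172 and 1390 exonic bases, were 0.11, 0.08 and 0.0012.

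Levels of different genes can be compared per kilobase of exonic length. In mKate2- cells Cdkn2a, at 289 CPM per kb, and Ccnd1, at 269 CPM per kb, headed the order with overlapping ranges over the libraries. Cdkn2b followed at 101 CPM per kb and Ccnd2 at 55.5 CPM per kb, each apart from its neighbours, and then Cdkn2c, Cdkn1a and Mdm2 at 33.5, 30.8 and 24.2 CPM per kb, each overlapping the next. Cdk6, Rb1 and Trp53 closed the order at 7.69, 5.82 and 3.67 CPM per kb without overlap. The order was the same in mKate2+ cells.

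In astrocytes the order differed. Ccnd1 stood alone at the top with 743 CPM per kb, followed by Cdkn1a, Ccnd2 and Cdkn2a at 197, 168 and 137 CPM per kb, where each overlapped the next. Without astrocyte replicate 3 Ccnd2 stood at 97.4 CPM per kb, below Cdkn2a at 155 CPM per kb. Without astrocyte replicate 1 Ccnd2 stood at 214 CPM per kb, above Cdkn1a at 191 CPM per kb. Cdkn2b and Mdm2 came next at 64.6 and 52.4 CPM per kb, with overlapping ranges. Cdkn2c, Rb1 and Trp53 followed at 26.4, 20.0 and 18.3 CPM per kb. The range of Rb1 overlapped those of Cdkn2c and Trp53, which did not overlap each other. Without astrocyte replicate 3 Trp53, at 18.5 CPM per kb, stood above Rb1, at 17.5 CPM per kb. Cdk6 was lowest at 3.20 CPM per kb.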

How the data were processed

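RNA from 9 libraries was analysed. The authors trimmed reads with Trimmomatic 0.36, mapped them to GRCm38 with STAR 2.5.2b and counted them per gene with featureCounts of Subread 1.5.2, and the deposited counts carry no normalization. The annotation release and strand setting are not given in the sources used here. The sort gates in the labels place the CellTrace Violet stain on the tumor cells, whereas the study's methods place it on the astrocytes, so libraries were taken by name. Gene names, positions and exonic lengths came from GENCODE M21, in which 259 of 49315 IDs have no name. Promoter windows came from RefSeq on GRCm38.p6, and the motif search was chosen after values were seen.

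Each comparison used the 6 libraries of its groups, genes above 1 CPM in at least 2 of them, TMM normalization, edgeR 4.0.16 quasi-likelihood tests and Benjamini-Hochberg adjustment over all genes tested (R 4.3.3). The test itself gives no standard error. Standard errors were derived from the log2 fold change and the F value, and the 95% intervals from them with a t quantile, so both are approximate. Thresholds followed the study's methods, except that its cutoffs for genes higher in mKate2+ cells were applied in both directions and its count cutoff was read as a mean of normalized counts. DESeq2 1.42.0, other normalization and filters, all 9 libraries in 1 fit, the replicate number as a block, removal of a gene length trend (loess, span 0.3) and omission of each library were the alternatives. The main fit, DESeq2, the removal of the gene length trend and the replicate block were tried on simulated counts in which 200 genes were changed. The simulations covered mKate2- cells against astrocytes and mKate2+ against mKate2- cells. They used the same replicate spread for every gene, which was not taken from these data. The remaining alternatives and the comparison of mKate2+ cells with astrocytes were not simulated.

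The 10 genes and all lists were chosen with earlier results of these data known. From each list other than the 10 genes, the 3 genes with the smallest adjusted P value per direction among those called in mKate2- cells against astrocytes were named, with the expressed genes around Cdkn2a and genes marked in the text as named after their values were seen. Totals of 24454561 to 39287841 counts make counting error small. The spread between replicate libraries was larger, and its source was not tested.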

Additional observations from a re-analysis of the deposited data

How the results depend on the processing

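Of 390 log2 fold changes of the 10 genes recomputed under the alternatives, 375 kept their direction and their side of the threshold, 8 lost a call and 7 changed sign. All 8 lost calls concern Ccnd2 (without astrocyte replicate 3 or single SB28 libraries) or Cdkn2a, and their values stand in the report. The calls of Trp53, Cdkn1a, Mdm2, Rb1, Ccnd1 and Cdk6 against astrocytes held under all 13 alternatives, with log2 fold changes over both comparisons of -2.82 to -2.11 for Trp53 and -2.81 to -2.27 for Cdkn1a. Leaving out 1 library gave 1 or 2 of the 10 genes called higher in mKate2- cells against astrocytes, with 1 only without astrocyte replicate 3, and 5 or 6 called lower in either comparison. The 7 changes of sign all occurred between mKate2+ and mKate2- cells, where no call was made: Cdkn1a -0.14, Cdkn2a -0.03, Cdkn2b -0.013 and Ccnd2 -0.032 without mKate2+ replicate 2, Ccnd2 -0.0066 without mKate2- replicate 1, Cdkn1a -0.01 without mKate2- replicate 3, and Cdk6 0.11 with the gene length trend removed. The highest values over the omission of single libraries were 0.37 for Cdkn1a, 0.39 for Cdkn2a and 0.21 for Cdkn2b, each without mKate2+ replicate 3, and 0.13 for Ccnd2 without mKate2- replicate 2.

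The number of genes called between mKate2+ and mKate2- cells, 23 higher and 20 lower, moved with the processing, and the cause was not tested. It was 62 higher in DESeq2, 224 higher and 35 lower without the filter, 44 and 13 with all 9 libraries in 1 fit, and 14 higher with the gene length trend removed. Over the omission of single libraries it ran from 6 to 310 higher and from 16 to 70 lower. The mKate2+ mean of Ccnd1 was 1336 CPM over TMM effective library sizes. Among the lists, the 1 p53 target called higher in mKate2- cells ranged from 0 to 2 and all 16 E2F targets stayed called when any library was left out.

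Replicate numbers were not treated as pairing in the main fits, since the labels do not say that a number marks 1 co-culture. Same-numbered SB28 libraries deviated from their group means with correlations of -0.06, 0.12 and 0.33, and differently numbered ones with -0.26 to 0.13. With so few libraries these correlations cannot decide whether the groups were paired. With the replicate number as a block, 13 genes were called higher and 33 lower between the SB28 groups, and no call of the 10 genes changed. With 3 libraries a group, the spread between replicate libraries was larger than counting error. Whether it came from the co-cultures, the sort or the library preparation was not tested.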

Other observations

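Some markers of other cell types were high in SB28 cells while their companions were near 0. Tmem119, a microglial marker, was 47.3 to 61.1 CPM in the SB28 libraries and 24.8 to 39.1 CPM in astrocytes, whereas Cx3cr1 was at 0 in all 6 SB28 libraries and Aif1 at most 0.0368 CPM in them. The 8 microglial markers summed to 51.9 ± 4.50 CPM in mKate2- cells, 54.2 ± 6.17 CPM in mKate2+ cells and 33.7 ± 6.22 CPM in astrocytes. The oligodendrocyte sum was 23.6 ± 1.73, 25.1 ± 3.01 and 114 ± 20.4 CPM, nearly all of it Cnp, the neuronal sum 43.9 ± 3.18, 40.3 ± 2.18 and 50.6 ± 7.28 CPM, with Map2 highest in astrocytes and Tubb3 in mKate2+ cells, and with Rbfox3 at 0 in all 9 libraries, and the fibroblast and vascular sum 314 ± 50.8, 254 ± 43.2 and 356 ± 79.8 CPM, led by Col1a1.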
